A study of Rattus norvegicus with 11 samples.

Results

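The miRNAs described here are 9 products of the miR-17-92 cluster and of its paralog, the miR-106b-25 cluster, measured in pancreatic islets of female rats. They were chosen by name, as the array entries whose stem is miR-17, miR-18a, miR-19a, miR-19b, miR-20a, miR-92a, miR-106b, miR-93 or miR-25, with or without an arm suffix and without the star names, present on both array designs of the series. The rule found 9 of the 340 miRNA names that both designs share. Islets came from Sprague Dawley daughters (F1) of fathers (F0) of 2 diet groups. In the HFD group the father's pellets held 43% fat, and in the Control group the father's chow held 9%. Fathers of both groups were mated at 15 weeks with chow-fed dams, so the daughters themselves never received the high-fat pellets: they were weaned onto chow at 3 weeks, had glucose tests at 6 and 12 weeks and an insulin test at 11 weeks, and gave islets at 13 weeks. The comparison asks whether the father's diet left a difference in the islet miRNAs of daughters. There were 5 HFD samples (603, 607, 644 and 653 on the first array design, 640 on the second) and 6 Control samples (602, 613, 615 and 639 on the first, 635 and 652 on the second). The labels do not say which daughters share a father or litter, so the p-values measure the spread between these samples only.

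The miR-17-92 cluster is a polycistron: a single primary transcript is cut into several hairpins, each of which gives a mature miRNA of its own. It is driven by MYC and E2F factors, is known for promoting proliferation and survival, and is often amplified or overexpressed in human lymphoma. The miR-106b-25 cluster lies in an intron of Mcm7, a gene of the DNA replication helicase, and makes miRNAs with seeds of the same kinds. In mice, both clusters have been studied in beta cells for roles in proliferation and insulin secretion.

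A miRNA finds its targets mainly through its seed, bases 2 to 8 from the 5′ end, and the 9 members fall into 4 seed groups. Their mature sequences, from RefSeq on the rat build GRCr8, are printed to show which members can share targets and which are close enough to be hard to separate on an array, with the seed in capitals. An array name without a suffix was matched to the main arm, as RefSeq names it.
miR-17-5p: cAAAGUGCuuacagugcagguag
miR-20a: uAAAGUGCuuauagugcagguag
miR-106b: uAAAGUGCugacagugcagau
miR-93: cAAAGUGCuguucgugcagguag
miR-18a: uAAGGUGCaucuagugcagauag
miR-19a: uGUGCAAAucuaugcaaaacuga
miR-19b: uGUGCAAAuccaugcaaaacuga
miR-92a: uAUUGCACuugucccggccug
miR-25: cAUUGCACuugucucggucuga

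miR-17-5p, miR-20a, miR-106b and miR-93 carry the seed AAAGUGC, and in human cells this family is known to target the cell cycle inhibitor CDKN1A and the transcription factor E2F1. miR-18a has a seed of its own, AAGGUGC, and in mouse tumours is known for repressing matrix proteins that curb vessel growth. miR-19a and miR-19b share GUGCAAA. miR-92a and miR-25 share AUUGCAC. The seeds AAAGUGC and AUUGCAC thus occur in both clusters, and GUGCAAA and AAGGUGC in the miR-17-92 cluster alone. Counting positions from 1 at the 5′ end, miR-19a and miR-19b are identical at 22 of 23 bases and differ by U11C. miR-17-5p and miR-20a are identical at 21 of 23 bases and differ by C1U and C12U, and miR-92a and miR-25 are identical at 18 of 21 compared bases and differ by U1C, C14U and C18U.

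On GRCr8 the 6 mature miRNAs of the miR-17-92 cluster lie within 762 bases at chr15:98587861-98588622 on the plus strand. The 3 of the miR-106b-25 cluster lie within 472 bases at chr12:22156652-22157123 on the minus strand, inside Mcm7. The mature sequences of miR-17-5p, miR-19b and miR-92a are also found in a further paralog, the miR-106a-363 cluster at chrX:137342788-137343637, so a signal for these 3 can come from either locus. The array headers name the build rn4, and the files give no coordinates.

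Each member had the same 2 probes on both designs, with up to 10 spots per probe, and no member spot was saturated. Signals are given as scaled signal: background-subtracted brightness, summed over a miRNA's probes and divided by the 75th percentile of its array, taken over the 85 miRNAs that all 11 arrays detected, then brought back to the mean of those percentiles. A value below 0 means that the spots were dimmer than the estimated background. That percentile was 652.2 to 1052 brightness units on the first design and 1018 to 2362 on the second. The islet endocrine markers miR-375 and miR-7a were detected and summed to a scaled signal of 11629.4 to 14341.4 in HFD and 11095 to 15786.8 in Control arrays of the first design. HFD 653 stood apart in quality: its negative controls had an SD of 11.6, against 2.03 to 2.41 on the rest of its slide, and 105 of the shared miRNAs were detected on it, against 138 to 157. The second design comprised 1 HFD and 2 Control arrays, so its values are shown but cannot be tested alone. On that design, 130 of the shared miRNAs were detected on Control 635, against 163 on Control 652 and 184 on HFD 640.

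Of the 9 members, 6 were detected on at least 5 arrays and entered the tests, namely miR-20a, miR-19b and miR-92a of the miR-17-92 cluster and all 3 members of the miR-106b-25 cluster. The scanner software detected miR-19b, miR-106b and miR-25 on all 11 arrays, miR-92a on 10, miR-20a on 9 and miR-93 on 7. Between 4 and 7 members were detected per HFD array and between 3 and 7 per Control array. The means were 5.6 in HFD and 5.5 in Control arrays, and the difference within array design was 0.125 (exact permutation over 210 splits, two-sided p = 1). The sign of that difference rested on single arrays of the second design, reading -0.5 without HFD 640 and -0.4 without Control 635.

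miR-20a, the AAAGUGC miRNA of the miR-17-92 cluster that was detected often enough to test, had a scaled signal of 139.2, 63.2, 43.3 and 47.9 in HFD 603, 607, 644 and 653, against 97.3, 70.5, 65.3 and 40.0 in Control 602, 613, 615 and 639. On the second design it read 36.3 in HFD 640, against 46.1 and 35.7 in Control 635 and 652. It was not detected on HFD 653 and Control 635. HFD 603 and Control 602 were the brightest of their groups, and the groups overlapped throughout. On the log2 scale, first-design arrays averaged 6.03 ± 0.76 in HFD and 6.02 ± 0.53 in Control (SD, n = 4 each).

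miR-19b, of the miR-19 pair through which the cluster drives lymphoma in mouse models, had 300.4, 147.9, 109.5 and 121.3 in HFD 603, 607, 644 and 653, against 218.0, 156.8, 143.6 and 109.4 in Control 602, 613, 615 and 639. On the second design it had 160.0 in HFD 640, against 161.4 and 166.7 in Control 635 and 652. The same arrays, HFD 603 and Control 602, were brightest, and the ranges of the groups lay over each other. The log2 means of the first design were 7.28 ± 0.66 in HFD and 7.25 ± 0.41 in Control (SD, n = 4 each).

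miR-92a, which restrains vessel growth in mice, had 217.1, 89.3, 65.5 and 121.2 in HFD 603, 607, 644 and 653, against 103.2, 107.0, 91.8 and 66.2 in Control 602, 613, 615 and 639. On the second design it had 32.1 in HFD 640, against 37.9 and 41.1 in Control 635 and 652, and it was not detected on Control 635. HFD 603 was again the brightest array, but here Control 602 was not set apart from the rest of its group. Log2 means were 6.80 ± 0.74 in HFD and 6.50 ± 0.32 in Control on the first design (SD, n = 4 each). In islets, which hold several cell types, a level that differs between samples can reflect fewer cells of a type or less RNA per cell, and these cannot be told apart.

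miR-106b, the first hairpin of the Mcm7 cluster, varied little. It had 185.2, 178.4, 165.3 and 176.6 in HFD 603, 607, 644 and 653, against 182.1, 162.1, 185.4 and 182.0 in Control 602, 613, 615 and 639. On the second design it had 154.7 in HFD 640, against 144.3 and 152.7 in Control 635 and 652. Neither HFD 603 nor Control 602 stood out, and the groups overlapped. Log2 means were 7.46 ± 0.068 in HFD and 7.47 ± 0.089 in Control (SD, n = 4 each).

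miR-25, which in human cells targets the pro-apoptotic BCL2L11 (BIM), had 260.3, 203.8, 239.2 and 236.3 in HFD 603, 607, 644 and 653, against 239.1, 225.4, 263.8 and 209.3 in Control 602, 613, 615 and 639. On the second design it had 167.2 in HFD 640, against 157.1 and 158.4 in Control 635 and 652. The groups overlapped on the first design, and on the second the single HFD array was the brightest of 3. Log2 means were 7.87 ± 0.15 in HFD and 7.87 ± 0.14 in Control (SD, n = 4 each).

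miR-93 lay close to the background on the first design, with 10.3, 14.6, 15.1 and -19.0 in HFD 603, 607, 644 and 653, against 7.9, 16.0, 11.9 and 11.8 in Control 602, 613, 615 and 639. Values under 11.3, the floor set before taking log2, carry no order, and this held for HFD 603, HFD 653 and Control 602. On the second design miR-93 had 33.1 in HFD 640, against 28.0 and 30 in Control 635 and 652, and it was not detected on Control 635. Its dimmer probe was well above background on 0 arrays, so its signal rests mainly on 1 probe.

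**Figure D1:**
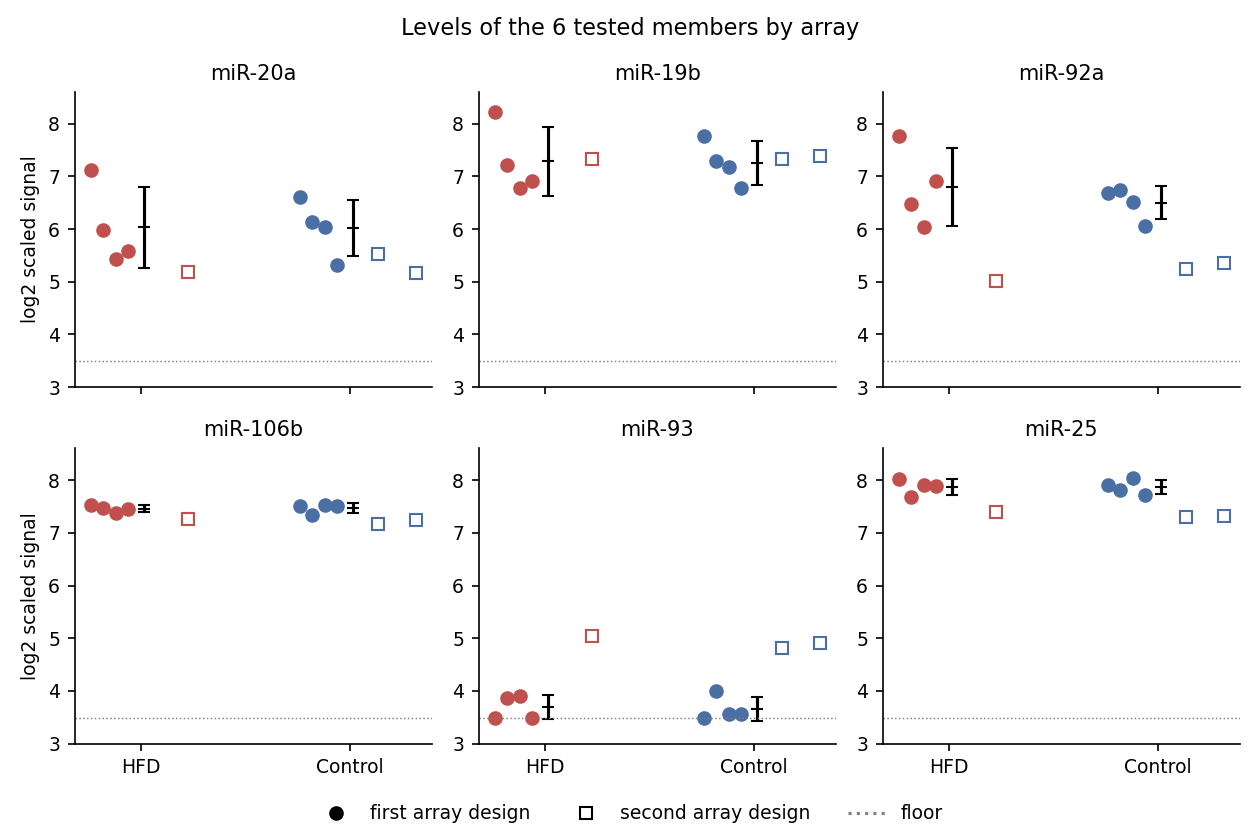
Log2 scaled signal (vertical axis) of the 6 tested members in each array, with HFD in red left of Control in blue. Filled circles are arrays of the first design, open squares those of the second, bars are the first-design mean and SD (n = 4 each), and the dotted line is the floor at 3.49. miR-20a, miR-19b and miR-92a are spread widely within both groups, miR-106b and miR-25 lie in narrow bands, and miR-93 lies at or near the floor on the first design.

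No difference between daughters of HFD and Control fathers was called for any member. With array design as a block, limma called 0 of the 6 members at an adjusted p of 0.05, on a background of 0 of 152 tested miRNAs (0%), and the adjusted p was 0.987 for each member. At an unadjusted p of 0.05 limma and the exact permutation within array design each called 3 of 152 miRNAs (1.97%), none of them members. The smallest unadjusted member p was 0.584 by limma and 0.581 by exact permutation. On the first design, 2 of 152 miRNAs (1.32%) had groups that did not overlap, and no member was among them.

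The fitted difference, HFD minus Control on the log2 scale, was 0.0062 ± 0.079 (SE) for miR-106b, 0.023 ± 0.097 for miR-25 and 0.074 ± 0.13 for miR-93. The corresponding 95% intervals of the fold, HFD over Control, ran from 0.889 to 1.13 for miR-106b, from 0.875 to 1.18 for miR-25 and from 0.860 to 1.29 for miR-93. The interval of miR-93 is narrowed by the floor, at which 3 of its 8 first-design values lie. The differences of the miR-17-92 members were -0.035 ± 0.32 for miR-20a, 0.016 ± 0.27 for miR-19b and 0.15 ± 0.29 for miR-92a. Their fold intervals ran from 0.594 to 1.60 for miR-20a, from 0.670 to 1.53 for miR-19b and from 0.712 to 1.73 for miR-92a. Differences within these limits are not excluded by these 11 arrays. The standard error of the median tested miRNA was 0.181.

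No direction is given for the members, since the signs changed with the scaling. In the main scaling 5 of 6 members lay above 0, with a median of 0.020, while 108 of 152 tested miRNAs lay above 0, with a median of 0.066. When arrays were scaled by the 75th percentile of all 340 shared names, by the median, by quantiles and in a summary like RMA, the median of all miRNAs shifted by -0.212, -0.15, -0.133 and -0.125, and 0, 1, 0 and 0 of 6 members lay above 0. Without scaling and with the software's total signal, 6 of 6 members lay above 0. Relative to the median of all miRNAs, the members' median was -0.0462 in the main scaling and -0.059, -0.0493, -0.134 and -0.0321 under these 4. It was above 0 with the software's total signal (0.0041), without the block (0.0133) and without Control 602 (0.0254), and below 0 under the remaining settings. One array also decided signs: without HFD 603 the difference turned to -0.213 for miR-19b, -0.098 for miR-92a, -0.00889 for miR-106b and -0.0114 for miR-25. That of miR-20a, already negative with all arrays, was -0.302, and the members' median was -0.0547.

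**Figure D2:**
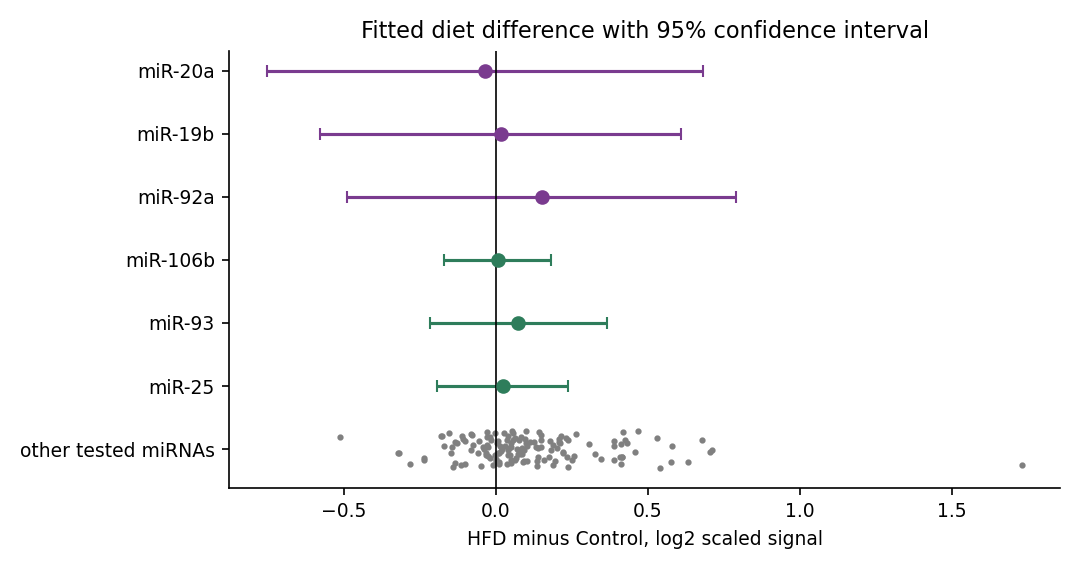
Fitted difference of each tested member, HFD minus Control on the log2 scale (horizontal axis), with its 95% confidence interval, for miR-17-92 members in purple and miR-106b-25 members in green. Grey points are the other tested miRNAs without their intervals. All 6 intervals include 0, and those of miR-106b and miR-25 are narrower than those of the miR-17-92 members. That of miR-93 is narrowed by the floor.

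The difference between HFD and Control was also compared between the array designs. The interaction of diet and design was called for 0 of 152 miRNAs by limma (0%), and for 1 (0.658%) before adjustment, which was no member. The smallest unadjusted member p was 0.399, for miR-92a. That miRNA read 0.30 on the first design and -0.30 on the second, where the single HFD array is assumed to vary like the others. The other members read between -0.012 and 0.034 on the first design and between -0.16 and 0.20 on the second.

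Members of the miR-17-92 cluster varied more from array to array within a diet group than miR-106b and miR-25, a description with no test. Over the 8 arrays of the first design, the within-group SD on the log2 scale was 0.657 for miR-20a, 0.567 for miR-92a and 0.547 for miR-19b. It was 0.079 for miR-106b, 0.144 for miR-25 and 0.23 for miR-93, whose spread is cut short by the floor. The median over 152 tested miRNAs was 0.33. Ordered from the steadiest, miR-106b was number 4 of 152, miR-25 number 21, miR-93 number 53, miR-19b number 109, miR-92a number 113 and miR-20a number 130. Between replicate spots of the brighter probe on the same array, the median coefficient of variation was 12.5% for miR-20a, 12.0% for miR-19b and 11.6% for miR-92a, against 14.7% for miR-25 and 8.81% for miR-106b.

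**Figure D3:**
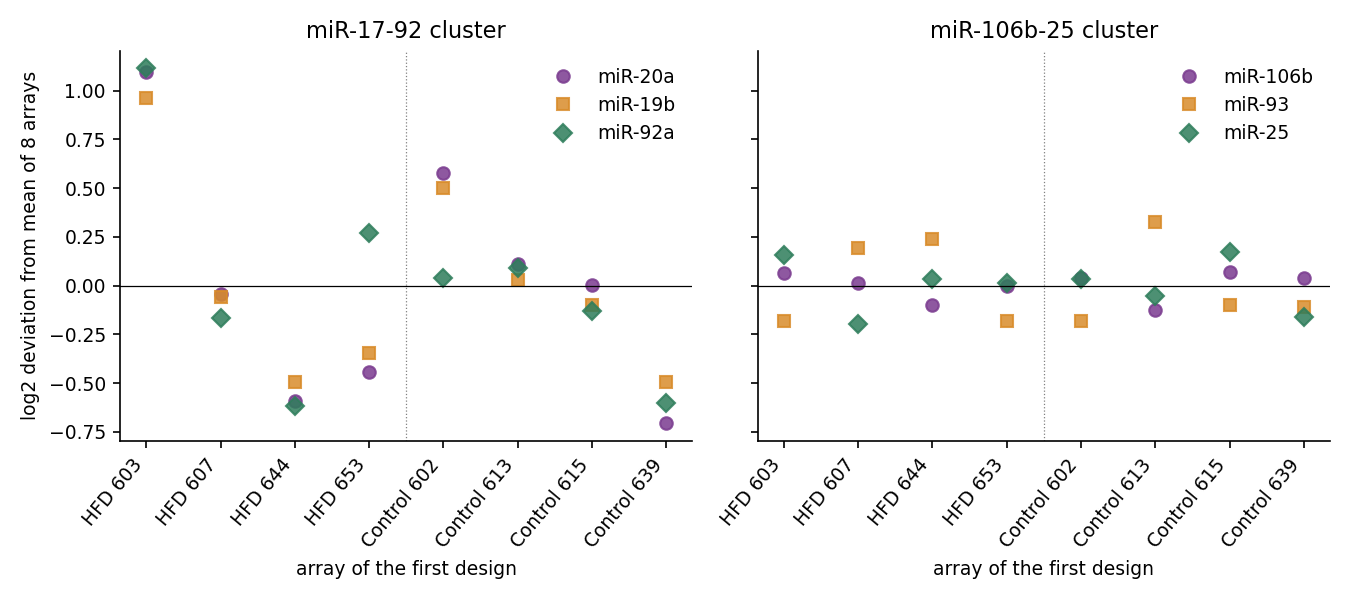
Deviation of each member from its mean over the 8 arrays of the first design, in log2 units (vertical axis), by array (horizontal axis), with HFD arrays left of the dotted line and Control arrays right of it. The 3 miR-17-92 members lie close together in most arrays, between 0.96 and 1.11 above their means on HFD 603 and between 0.49 and 0.70 below on Control 639, and lie farther apart on Control 602 and HFD 653. miR-106b and miR-25 stay between -0.20 and 0.17, and miR-93, with its lower values at the floor, reaches 0.33 on Control 613.

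The 3 miR-17-92 members lay on the same side of their means on 6 of 8 arrays. On HFD 603, miR-20a, miR-19b and miR-92a lay 1.09, 0.96 and 1.11 log2 units above their means over the 8 arrays. On HFD 644 they lay at -0.59, -0.49 and -0.62, and on Control 639 at -0.70, -0.49 and -0.60. The exceptions were HFD 653, with miR-92a at 0.27 where miR-20a and miR-19b were at -0.45 and -0.34, and Control 615, with miR-20a at 0.0012 where miR-19b and miR-92a were at -0.10 and -0.13. On Control 602 all 3 lay above their means, miR-92a by 0.040 and miR-20a and miR-19b by 0.58 and 0.50.

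The steadiness of a ratio measures this without setting one probe's brightness against another's, and it does not depend on how arrays are scaled, apart from values at the floor. The SD of the log2 ratio of miR-20a to miR-19b, which differ in seed and are both encoded in the miR-17-92 cluster, was 0.132, with the X-linked copy of miR-19b measured together with it. That SD was smaller than the SD of either miRNA alone. The ratio of miR-106b to miR-25 had an SD of 0.145, no smaller than that of miR-25 alone. The other 4 pairs within a cluster had SDs of 0.294 for miR-19b and miR-92a, 0.30 for miR-106b and miR-93, 0.319 for miR-93 and miR-25 and 0.335 for miR-20a and miR-92a. The ratios of miR-93 to miR-106b and to miR-25 had larger SDs than either miRNA alone (0.23 for miR-93, 0.079 for miR-106b and 0.144 for miR-25). The ratios of miR-92a to miR-19b and to miR-20a had smaller SDs than either miRNA alone.

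Across the clusters the 9 ratios had SDs from 0.498 to 0.755, with a median of 0.600, against 0.132 to 0.335, with a median of 0.297, for the 6 ratios within a cluster. Those within the miR-106b-25 cluster did not fall below the SDs of their single miRNAs, so they do not show that these members varied together. The median over all 11476 pairs of tested miRNAs was 0.536. A shared seed did not go with a steadier ratio across clusters: the 3 pairs with the same seed, such as miR-20a with miR-106b, had SDs from 0.506 to 0.755, and the 6 pairs with different seeds from 0.498 to 0.700. These are descriptions of 8 arrays over overlapping pairs, with no test. HFD 603 set part of the gap: without it the ratios across clusters had SDs from 0.348 to 0.491 and those within a cluster from 0.123 to 0.361, so that the ranges overlapped.

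**Figure D4:**
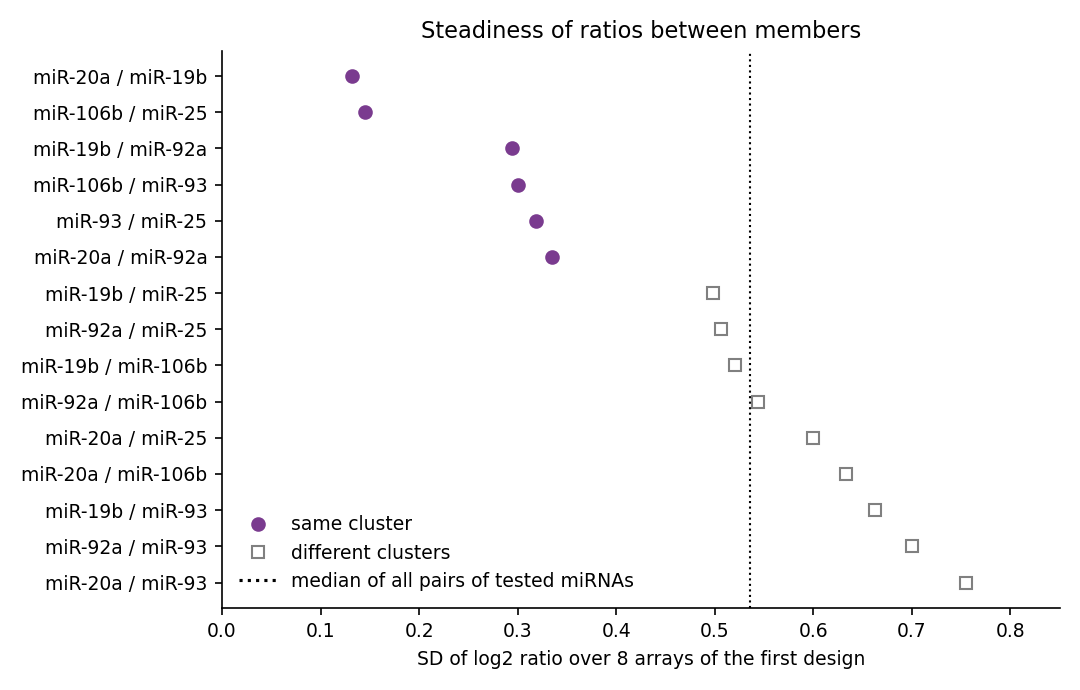
SD of the log2 ratio of each pair of tested members over the 8 arrays of the first design (horizontal axis), taken around the group means, for pairs from the same cluster (filled circles) and from different clusters (open squares). The 6 pairs within a cluster lie between 0.132 and 0.335 and the 9 pairs across clusters between 0.498 and 0.755, with the median of all pairs of tested miRNAs at 0.536 (dotted line).

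Among tested miRNAs outside these families, 5 were named for the steadiest log2 ratio to the mean of miR-106b, miR-19b and miR-25, the members detected on all arrays. They were miR-130a with an SD of 0.161, miR-21 with 0.164, miR-99a with 0.177, let-7a with 0.178 and miR-23a with 0.181 over the 8 arrays. The median of the 146 miRNAs compared was 0.429. For miR-99a, let-7a and miR-23a the ratio had a larger SD than the miRNA alone (0.138, 0.138 and 0.128). A steady ratio of these therefore does not show that they varied together with the members. Alone, miR-130a and miR-21 had SDs of 0.172 and 0.245.

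The miR-17-92 members also read higher in 1 row of the slide than in the other, a comparison that was chosen after the values were seen and in which no miRNA passed after adjustment. The first design's slide holds HFD 603, HFD 607, Control 602 and Control 613 in row 1 and HFD 644, HFD 653, Control 615 and Control 639 in row 2, so each row holds both diet groups equally. Row 1 minus row 2 was 0.87 ± 0.30 (SE) on the log2 scale for miR-20a, 0.72 ± 0.25 for miR-19b and 0.54 ± 0.33 for miR-92a. It was -0.0037 ± 0.094 for miR-106b, 0.077 ± 0.17 for miR-93 and -0.032 ± 0.12 for miR-25. After adjustment limma called 0 of 152 miRNAs (0%), with an adjusted p of 0.314 for miR-20a and miR-19b. Before adjustment it called 22 of 152 (14.5%), among them these 2 members, and the rows did not overlap for 17 of 152 (11.2%), among them miR-19b. Within rows the diet difference of miR-20a was 0.18 in row 1 and -0.17 in row 2, that of miR-19b 0.19 and -0.12, and that of miR-92a 0.41 and 0.19. Those of the miR-106b-25 members lay between -0.10 and 0.13.

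Acinar markers were highest on the same arrays as miR-20a and miR-19b. Of the 3 acinar markers, miR-216a and miR-217 are on both designs. On the first design miR-217 was detected on Control 602 only, so that the acinar sum is in effect miR-216a, a miRNA of the digestive enzyme-making exocrine cells that surround islets. The sum was 731.8, 332.0, 116.5 and 280.9 in HFD 603, 607, 644 and 653, against 684.2, 469.1, 97.5 and 23.0 in Control 602, 613, 615 and 639. HFD 603 and Control 602 were the highest of their groups, and every array of row 1 lay above every array of row 2.

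Over these 8 arrays the mean log2 level of miR-20a, miR-19b and miR-92a had a Pearson r of 0.786 with the log2 acinar sum (exact permutation over 40320 orders, p = 0.0241) and a Spearman rho of 0.857 (exact permutation p = 0.0107). Without Control 639 and Control 615, the arrays farthest from the median, r was 0.887. Centred by slide row, r was 0.52 (exact permutation over the 576 orders within rows, p = 0.0868). With the sum of the endocrine markers the same level had an r of -0.813 (exact permutation p = 0.0134) and a rho of -0.857 (p = 0.0107), r was -0.843 without Control 639 and Control 602, and -0.708 centred by row (p = 0.0938). The family comprised 10 relations of 2 clusters with 5 marker lists, and none passed after adjustment. By exact permutation the adjusted p was 0.0792 for both values of r and 0.0536 for both values of rho. Within rows it was 0.223 for both. The r of the miR-17-92 level with the endothelial and the fibroblast and smooth muscle lists had the same adjusted p, 0.0792. For their rho it was 0.153 and 0.405. For miR-106b and miR-25 the r with the acinar sum was 0.182 (exact permutation p = 0.684), and 0.446 centred by row (p = 0.259). Their r with the endocrine sum was -0.525 (exact permutation p = 0.184), and -0.719 centred by row (p = 0.0885), about that of the miR-17-92 members. Whether the relations differ between the clusters was not tested. The part of acinar RNA and of slide row in these levels was not tested, and they divide the same arrays.

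The r with each of the remaining lists was smaller or of the other sign without the 2 arrays farthest from that list's median, and larger centred by slide row than that of the acinar list. The arrays left out differed between lists: HFD 603 was left out for the leukocyte and endothelial lists and kept for the others. Values of r without 2 arrays are therefore not comparable between lists. Of the 5 leukocyte markers on both designs, 4 were detected on the first design, miR-142-3p on HFD 603 alone, and miR-142-5p was not. They summed to 281.4 to 681.3 in HFD and 212.9 to 304.2 in Control arrays of that design. HFD 603 was the highest, with 229.7 for miR-150 and 112.1 for miR-142-3p. Control 602, also bright for miR-20a and miR-19b, was the lowest. There miR-342-3p, the largest part of that array's sum, read 169.6, against 229.2 to 318.8 on the other arrays of the design. On Control 602 miR-142-3p read 4.0 without being detected, a value under the floor of 11.3 that carries no order. The miR-150 (13.8) and miR-223 (25.5) of Control 602 were the highest of the Control arrays of that design. The r of the leukocyte sum with the miR-17-92 level was 0.538 (exact permutation p = 0.173), with a rho of 0.0238 (exact permutation p = 0.977). That r was -0.635 without HFD 603 and HFD 653, and 0.763 centred by row (exact permutation p = 0.106). On the first design, endothelial miR-126 was detected and miR-126* was not. The sums were 384.8 to 673.6 in HFD and 427.5 to 551.6 in Control arrays. Their r was 0.777 (exact permutation p = 0.0221), which was 0.363 without HFD 603 and HFD 644 and 0.607 centred by row (p = 0.137). Of the 5 fibroblast and smooth muscle markers, 3 were detected on the first design, and miR-145 and miR-199a-5p were not. Sums of this list were 298.4 to 653.3 in HFD and 289.5 to 505.9 in Control arrays. Their r was 0.748 (exact permutation p = 0.0317), 0.436 without Control 639 and HFD 644 and 0.558 centred by row (p = 0.115). The red blood cell markers miR-451 and miR-144 were detected on 0 arrays of the first design. The part of these cells in the miR-17-92 level was not tested.

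**Figure D5:**
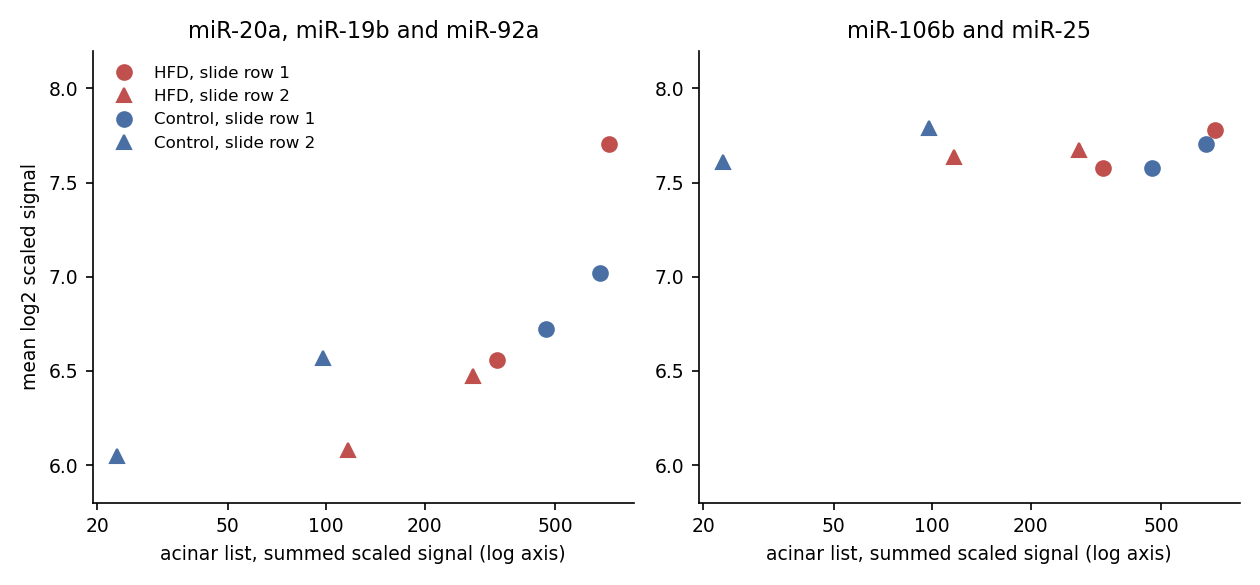
Mean log2 scaled signal of miR-20a, miR-19b and miR-92a (left) and of miR-106b and miR-25 (right) against the summed scaled signal of the acinar markers (horizontal log axis) in the 8 arrays of the first design, with HFD in red, Control in blue, slide row 1 as circles and row 2 as triangles. The left panel climbs with the acinar sum (r = 0.786), with HFD 603 at the top right, and the right panel is nearly level (r = 0.182).

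The other 3 members were too dim to test. miR-17-5p, the founding member of its cluster, was detected on 0 of 11 arrays, with scaled signals between -38.9 and -3.8 on the first design, and on the second 11.6 in HFD 640 against 8.5 and 15.8 in Control 635 and 652. miR-18a was also detected on 0 arrays, between -53.7 and -3.0 on the first design, and on the second at 3.5 in HFD 640 against 5.4 and 3.8 in Control 635 and 652. Both stayed undetected on arrays where miR-20a, which RefSeq places in the miR-17-92 cluster alone, was detected. miR-19a, which differs from miR-19b at 1 base, was detected on 2 arrays of the second design, with 31.0 in HFD 640 and 28.2 in Control 652, and read 28.8 without being detected in Control 635. On the first design it lay between -37.8 and 9.4 and was not detected, on arrays where miR-19b read 109.4 to 300.4. The miR-19a probes thus gave no detected signal there where miR-19b was bright. Whether the single differing base separates the pair on the second design, or on the miR-19b probes, was not tested.

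Of the wider family, 12 relatives were on both designs and none was detected often enough to be tested. The other-strand products miR-20a*, miR-106b* and miR-25* were detected on 0 arrays, as were miR-20b-3p, miR-363 and miR-363* of the X-linked paralog cluster, miR-92b, and miR-291a-3p and miR-291a-5p, of a cluster known from embryonic stem cells. miR-20b-5p of the X-linked cluster, with the seed AAAGUGC, was detected on 2 arrays, with 22.3 in HFD 640 and 21.1 in Control 652. miR-32, which shares the seed AUUGCAC and lies on chromosome 5, was detected on the same 2 arrays, with 39.2 in HFD 640 and 34.8 in Control 652. miR-290, of the embryonic cluster, was detected on the 3 arrays of the second design alone, with 65.6 in HFD 640 against 99.2 and 49.2 in Control 635 and 652. Values of the first design for these 3 were below 4 except 59.1 for miR-290 on HFD 653, the array with the noisy negative controls, where it was not detected.

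Probes of the same miRNA did not respond alike on both designs. The brighter miR-106b probe read between 134.1 and 163.0 on the first design and between 90.5 and 95.7 on the second, while the dimmer one read between 13.7 and 28.7 on the first and between 53.8 and 59.1 on the second. The array design block takes up such a shift in level. On the first design the dimmer miR-106b probe had a log2 difference of -0.25, HFD minus Control, against 0.017 for the brighter one. The brighter miR-93 probe read -0.076 although the sum over its probes read 0.033, so no direction can be given for miR-93.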

How the data were processed

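Per the labels' protocols, 100 ng of islet RNA carried the single dye Cy3 onto Agilent miRNA arrays. The deposited spot intensity was written by Feature Extraction 10.5.1.1 (first design) and 10.7.3.1 (second), and per the file headers it is background-subtracted but not scaled from array to array. The authors also deposited log2 tables. Set against each array's total intensity, the first table equalled log2 of the total plus 50 in 2720 of 2720 cells, and the second log2 of the total where detected and blank elsewhere in 2024 of 2031, within 0.01. Their column medians were 5.69, 5.73, 5.71 and 5.83 for HFD 603, 607, 644 and 653, 6.52 for HFD 640, 5.70, 5.70, 5.68 and 5.69 for Control 602, 613, 615 and 639, and 6.59 and 6.89 for Control 635 and 652. They are neither centred nor ratios, which settles scale and centring, and direction does not apply. The submitters' processing notes name RMA and Partek, whose role is not given in the sources used here.

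The processed signal was averaged over spots without an outlier flag, summed over probes per miRNA, scaled as described, floored at 11.3 (the 1st percentile of detected values) and put on the log2 scale. Differences were fitted with limma 3.58.1 (R 4.3.3), taking array design, which coincides with slide and scan, as a block, two-sided, with Benjamini-Hochberg adjustment over the 152 shared miRNAs detected on at least 5 arrays; exact permutation within design used 210 splits. The fit was tested on simulated data. The number of arrays limits the precision. Named were all members, all 12 relatives on both designs and the 5 miRNAs of steadiest ratio to members. Members, relatives and marker lists were chosen with earlier results of these data known. Slide row, marker relations and alternative settings of the ratios were added after seeing the data.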

Additional observations from a re-analysis of the deposited data

Results flagged for a closer look

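Within groups of 4 arrays of the first design, an array was singled out where its gap to the nearest other array passed Dixon's 95% critical share of the group's range, which chance does in about 1 of 20 groups, and 14 groups were checked. miR-106b on Control 613 lay below the other Control arrays, with a gap of 0.863 of the range. miR-93 on Control 613 lay above the other Control arrays, with a gap of 0.843 of the range, in a group where 1 of 4 values is at the floor. The number of members detected was 5 on Control 602 and 6 on each of the other Control arrays, which gives a gap of 1. With counts tied like this, any single array that differs gives that gap, so the chance rate above does not apply to it. Signals also appeared for miRNAs that entered no comparison: miR-19a had a scaled signal of 31.0 on HFD 640, above 28.8 and 28.2 on Control 635 and 652, and miR-32 had 39.2 on HFD 640, above 34.2 and 34.8 on those arrays. Both differences rest on 1 HFD array and were not tested.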

How the results depend on the processing

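The number of members past an adjusted p of 0.05 was 0 under each of the 18 other settings and without each array in turn, and the interaction count was 0 under both of its alternatives. Signs of single members, none of which passed the test, changed as follows. With the 75th percentile over all shared miRNAs, miR-19b, miR-92a, miR-106b, miR-93 and miR-25 read -0.208, -0.0737, -0.218, -0.0101 and -0.202. Scaled by the median, miR-19b, miR-92a, miR-106b and miR-25 read -0.136, -0.00176, -0.146 and -0.13. Under quantile normalization, miR-19b, miR-92a, miR-106b, miR-93 and miR-25 read -0.263, -0.18, -0.151, -0.176 and -0.222, and under the RMA-like summary -0.0138, -0.051, -0.245, -0.0922 and -0.09. miR-20a read 0.0379 without scaling, 0.00999 with normexp, 0.247 with the software's total signal, 0.0642 without the block and 0.00662 on the first design alone. miR-93 read -0.000635 with normexp, -0.0537 in the deposited tables, -0.0101 with the median over probes and -0.0938 without the block. miR-106b read -0.0708 with the median over probes, -0.00234 with outlier spots kept and -0.0116 on the first design alone, and miR-25 read -0.00628 with outlier spots kept. With array weights miR-92a read -0.104 and miR-25 -0.00807. Without both HFD 603 and HFD 653, miR-19b, miR-92a, miR-106b and miR-25 read -0.184, -0.26, -0.0129 and -0.0261. The cause of these changes was not tested. Without each array in turn the differences ranged from -0.302 to 0.102 for miR-20a, from -0.213 to 0.139 for miR-19b, from -0.098 to 0.317 for miR-92a, from -0.0233 to 0.0305 for miR-106b, from 0.0258 to 0.161 for miR-93 and from -0.0124 to 0.0734 for miR-25. The members' median ranged from -0.0547 to 0.0844, and the difference in members detected from -0.5 to 0.5. The median SD of ratios within clusters ranged from 0.211 to 0.321 and across clusters from 0.422 to 0.652. With normexp these medians were 0.0849 and 0.216, where the added offset of 50 narrows each ratio, with the floor at the 5th percentile the median within clusters was 0.144, and without both HFD 603 and HFD 653 the median across clusters was 0.398. Normexp on the mean spot signal was not run, and the median spot signal was used in its place. No paired analysis was possible because the groups share no replicate number. Signal over background limits miR-93 and leaves miR-17-5p, miR-18a and miR-19a untested.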
